A study of Mus musculus with 6 samples.

Results

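The genes described here encode the enzymes and transporters that carry glucose through glycolysis to lactate, together with the enzymes that build and break down glycogen. The 32 genes were chosen by symbol from the deposited table of 22063 genes, where they took up 33 rows, because Aldoa was listed under 2 gene identifiers. RNA sequencing had been done on heart muscle cells (cardiomyocytes) of wild-type (WT) mice, isolated by Langendorff perfusion, in which digestive enzymes are run through the coronary vessels. The AKG group had been injected every day for 2 weeks with 300 mg per kg of α-ketoglutarate (AKG), a metabolite of the tricarboxylic acid cycle, and the Control group with phosphate-buffered saline (PBS). Each group held 3 libraries, and the labels give postnatal day 21 for the mice without saying whether injections began or ended then. Nothing in the labels tells single mice from pooled ones, so p-values measure only the spread between these libraries, which may be technical.

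Glycolysis splits glucose to pyruvate in the cytosol, and lactate dehydrogenase interconverts pyruvate and lactate. Many steps are served by more than 1 gene: hexokinase 2, the insulin-responsive glucose transporter GLUT4 (Slc2a4), the enolase Eno3 and the glycogen phosphorylase Pygm are the forms of mature striated muscle, whereas Hk1, GLUT1 (Slc2a1), Eno1 and Pygb are widespread or fetal forms. Before birth the heart relies strongly on glycolysis, and after birth it turns to fatty acids. The comparison asked how transcripts of this pathway, and the balance of its isoforms, differed after AKG.

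Transcripts of most of these genes were lower after AKG, led by Hk2 and Slc2a4, while Pygb and the low-level Aldoc were higher. Of 32 genes, 22 fell and 3 rose at an adjusted p under 0.05 in edgeR's quasi-likelihood test, and 7 were not called. Of all 13117 genes tested, 25.2% were called lower and 25% higher, 50.2% in all. The median log2 fold change of the 32 genes was -0.48, beside 0.00 for all tested genes. All 32 passed the filter on low counts, Aldoc only through the AKG libraries. The 3 values of each group did not overlap for 23 genes lower and 6 genes higher after AKG, against 29.9% and 29.4% of tested genes.

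These calls are relative to the bulk of genes, because the trimmed mean of M-values (TMM) was used to scale the libraries. With total counts as the scaling, the median log2 fold change of all tested genes moved to 0.45, and 10 of the 32 genes were then lower and 8 higher, against 9.12% and 56.7% of tested genes. The genes split by how they behaved over the 21 settings tried. Slc2a4, Slc16a1, Hk2, Pfkm, Pfkp, Pfkfb2, Pgam1, Pgam2, Eno3 and Pkm were called lower in every setting. Pygb was called higher in every setting. So was Aldoc, whose call says little, because this gene was tested only through the AKG libraries in which it was high. For the others the call, and for some the sign, depended on the setting.

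**Figure D1:**
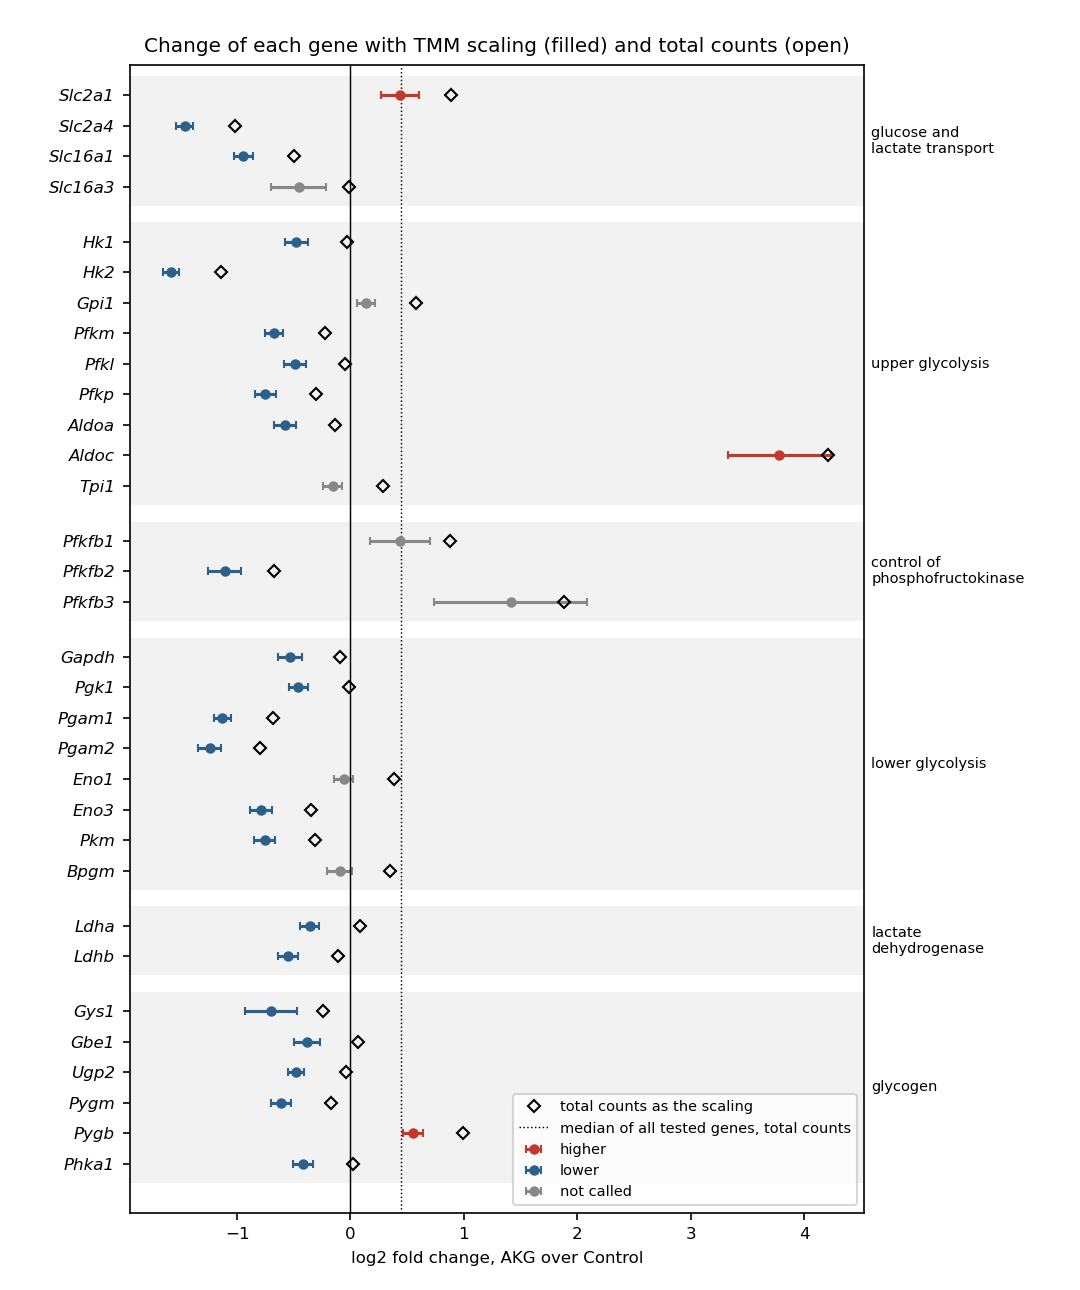
Log2 fold change, AKG over Control, of the 32 genes (x axis) by role (rows). Filled points are the TMM-scaled values with their SE, coloured by call, and open diamonds are the values with total counts as the scaling, to be read against the dotted line at 0.45, the median of all tested genes in that setting. Hk2 and Slc2a4 lie farthest to the left and Aldoc farthest to the right in both.

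Most of the heart muscle marker transcripts examined were lower after AKG as well. Of 12 cardiomyocyte markers, 10 were lower and 0 higher after AKG, against 25.2% and 25% of tested genes. The 12 summed to 37065 to 40241 CPM in AKG and 72398 to 78150 CPM in Control libraries. Here CPM stands for counts as a share of the TMM-scaled library total, times 10 to the power 6. Not called were Pln, with means of 3216 CPM in AKG and 3238 CPM in Control libraries, and Mybpc3, with 2452 and 2328 CPM. All 12 were detected in the libraries, and none was at 0. Fewer muscle cells and less of these RNAs per cell cannot be told apart in such libraries, and the part of this difference in the results below was not tested. Summed markers of fibroblasts were at 2927 to 3903 CPM in AKG and 2954 to 3767 CPM in Control libraries, with 3 of 10 higher and 4 lower. Those of endothelial cells were at 2215 to 2790 and 2422 to 2648 CPM, with 3 of 10 higher and 3 lower, and in neither list did the sums separate the groups. Summed smooth muscle markers stood at 980.4 to 1176 CPM in AKG and 1995 to 2175 CPM in Control libraries, with 6 of 8 lower, and summed macrophage markers at 90.6 to 117 and 137 to 213 CPM, with 4 of 10 lower. Their part in the results was not tested either. Atrial markers summed to 359, 7.58 and 219.6 CPM in AKG 1, 2 and 3 and to at most 12.05 CPM in Control libraries. With AKG replicate 2 alone against the 3 Control libraries, 23 of the 32 genes were lower and 3 higher, against 20.7% and 20.1% of the 13559 genes tested there. In that fit the Control libraries alone supply the spread, and the lone AKG library is assumed to vary like them. Library totals ranged from 14402876 to 17797368 counts, and 3 counts corresponded to 0.166 to 0.221 CPM.

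The 250 bases before the transcription start are shown for Hk2 and Pgam2 because they differ in a short motif. Hk2 had the largest fall, and Pgam2, the muscle phosphoglycerate mutase gene, also fell by more than 2-fold in TMM-scaled levels. The sequences are from RefSeq (GRCm38.p6), 5′ to 3′ on the strand of the gene. Capitals mark ACGTG or its reverse complement CACGT, a form of the core of the element bound by hypoxia-inducible factors. Other forms of this core were not searched. The Hk2 window lies at chr6:82774455-82774704 on the minus strand and holds 2 copies. The Pgam2 window lies at chr11:5803797-5804046 on the minus strand and holds 0.
Hk2: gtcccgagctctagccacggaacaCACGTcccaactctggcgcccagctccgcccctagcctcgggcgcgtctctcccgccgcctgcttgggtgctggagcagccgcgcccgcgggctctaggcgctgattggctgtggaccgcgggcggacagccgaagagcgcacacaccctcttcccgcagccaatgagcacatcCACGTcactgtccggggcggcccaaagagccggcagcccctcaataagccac
Pgam2: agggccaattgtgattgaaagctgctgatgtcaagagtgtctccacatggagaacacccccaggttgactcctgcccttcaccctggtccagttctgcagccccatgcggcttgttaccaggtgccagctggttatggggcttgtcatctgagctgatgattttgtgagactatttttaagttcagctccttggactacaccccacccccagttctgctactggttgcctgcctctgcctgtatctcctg

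RefSeq windows were matched by symbol for 31 of the 32 genes (49 starts); Slc2a4 had none. The motif ACGTG, searched on both strands, was in 19 of the 49 windows (38.8%) and in 21.3% of the 13229 windows of tested genes. It was in at least 1 window of 15 genes, among them Hk2, Ldha, Pgk1, Slc2a1 and Pygb, and of these 11 were lower, 2 higher and 2 not called after AKG. Of the 16 genes without it, 10 were lower, 1 higher and 5 not called. Of all tested genes 25.2% were called lower and 25% higher. The calls among all tested genes with the motif were not counted, so a link of motif and call was not tested. The palindrome CACGTG, which contains ACGTG, was in 5 windows (10.2%, and 8.16% of all). GGGCGG was in 49.0% of the windows and 56.7% of all, and TATAAA in 2.04% and 6.57%. A match is a description of these letters and not a bound site.

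Among transcripts of glucose transporters, that of Slc2a4 showed a large fall. Slc2a4 stood at 58.6, 62.5 and 60.9 CPM in AKG 1, 2 and 3, and at 161, 163 and 177 CPM in Control 1, 2 and 3. The groups lay far apart, with a log2 fold change of -1.46 (SE 0.0739, adjusted p = 1.07e-08, edgeR's quasi-likelihood test). Slc2a1, the transporter of most growing cells, stood at 8.77, 9.38 and 13.04 CPM in AKG and at 7.62, 8.39 and 6.99 CPM in Control libraries. Its call as higher with TMM (log2 fold change 0.44, SE 0.168, edgeR adjusted p = 0.0437) held with total counts (0.88, edgeR adjusted p = 0.000675). In that setting 56.7% of tested genes were higher. Slc2a1 was called higher in 10 of the 21 settings. Without AKG replicate 3 the call was lost, at a log2 fold change of 0.24 (edgeR adjusted p = 0.216). It was also lost with AKG replicate 2 alone (0.267), without Control replicate 1, 2 or 3 (edgeR adjusted p = 0.105, 0.0595 and 0.14), with DESeq2 (0.0808), with limma-voom (0.0727), with the replicate block (0.0502), with upper quartile scaling (0.0568), with the test not robust (0.053) and with the atrial covariate (0.321).

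Lactate leaves and enters cells through monocarboxylate transporters. Slc16a1 (MCT1, the main form of the heart) stood at 72.01, 64.9 and 73.7 CPM in AKG and at 144, 136 and 126 CPM in Control libraries. It fell by 0.94 on the log2 scale (SE 0.0798, edgeR adjusted p = 6.96e-07), with no overlap between the groups. Slc16a3 (MCT4, the form of glycolytic cells) was scarce in both groups, with 2.64, 1.99 and 3.44 CPM in AKG and 3.33, 4.10 and 3.68 CPM in Control libraries, and the groups overlapped. It was not called (log2 fold change -0.46, SE 0.245, edgeR adjusted p = 0.137), but was lower without AKG replicate 3 (-0.67, adjusted p = 0.0492) and with AKG replicate 2 alone (-0.89, adjusted p = 0.0495). In FPKM its sign turned (0.0756 on the log2(FPKM + 1) scale, limma adjusted p = 0.606).

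Hexokinase traps glucose in the cell as glucose 6-phosphate. Hk2 stood at 52.7, 49.9 and 49.8 CPM in AKG 1, 2 and 3 and at 150.1, 152 and 155 CPM in Control 1, 2 and 3. Within each group the libraries nearly coincided, and the level was 2.997-fold lower after AKG (log2 fold change -1.58, SE 0.0702, edgeR adjusted p = 4.31e-09). With total counts the fall of Hk2 was smaller (-1.14, edgeR adjusted p = 4.94e-08). Hk1 stood at 101, 105 and 136 CPM in AKG and at 162, 158 and 155 CPM in Control libraries. It fell less (-0.48, SE 0.103, edgeR adjusted p = 0.00194), AKG 3 lay closest to Control, and with total counts as the scaling it was not called (-0.03, adjusted p = 0.857).

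The next enzyme, glucose-6-phosphate isomerase (Gpi1), did not follow hexokinase. Gpi1 averaged 540.6 ± 16.5 CPM in AKG and 492 ± 20.1 CPM in Control libraries (SD, n = 3 each), and its groups did not overlap. It was not called (log2 fold change 0.14, SE 0.0787, edgeR adjusted p = 0.165), while with total counts it was higher (0.58, adjusted p = 3.12e-05).

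Phosphofructokinase commits sugar to glycolysis. Pfkm, its muscle form, stood at 325, 326 and 346 CPM in AKG and 503, 525 and 561 CPM in Control libraries, a log2 fold change of -0.67 (SE 0.0803, edgeR adjusted p = 1.42e-05). The platelet form Pfkp stood at 46.7, 44.7 and 57.4 CPM in AKG and 78.1, 85.97 and 86.4 CPM in Control libraries, a log2 fold change of -0.75. The liver form Pfkl stood at 61.9, 62.5 and 71.5 CPM in AKG and 80.4, 102 and 92.02 CPM in Control libraries (-0.49). None of the 3 had groups that overlapped, and all were called, at edgeR adjusted p = 1.42e-05, 2.42e-05 and 0.00074. The call of Pfkl was lost with total counts (-0.05, adjusted p = 0.753), and in FPKM its sign turned (0.14, limma adjusted p = 0.437).

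The Pfkfb genes encode bifunctional enzymes that make and degrade fructose 2,6-bisphosphate, the strongest activator of phosphofructokinase, and they did not move together. Pfkfb2, the heart form, stood at 46.5, 51.7 and 38.3 CPM in AKG and at 80.2, 102 and 112 CPM in Control libraries. It fell by 1.11 on the log2 scale (SE 0.143, edgeR adjusted p = 0.000236). Pfkfb3, the inducible form of proliferating cells, stood at 12.6, 12.1 and 44.6 CPM in AKG 1, 2 and 3 and at 7.96, 8.88 and 9.28 CPM in Control 1, 2 and 3. All AKG libraries lay above all Control libraries, and AKG 3 stood far above the other AKG libraries. With all 6 libraries Pfkfb3 was not called (log2 fold change 1.41, SE 0.676, edgeR adjusted p = 0.159). Without AKG replicate 3 the difference was smaller and was called (0.51, adjusted p = 0.00749). Pfkfb1 was near 2 to 3 CPM in AKG libraries (2.33 to 3.04) and at 1.61 to 2.28 CPM in Control libraries, and was not called (log2 fold change 0.44, edgeR adjusted p = 0.186). With total counts it was higher (0.88, adjusted p = 0.00951).

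**Figure D2:**
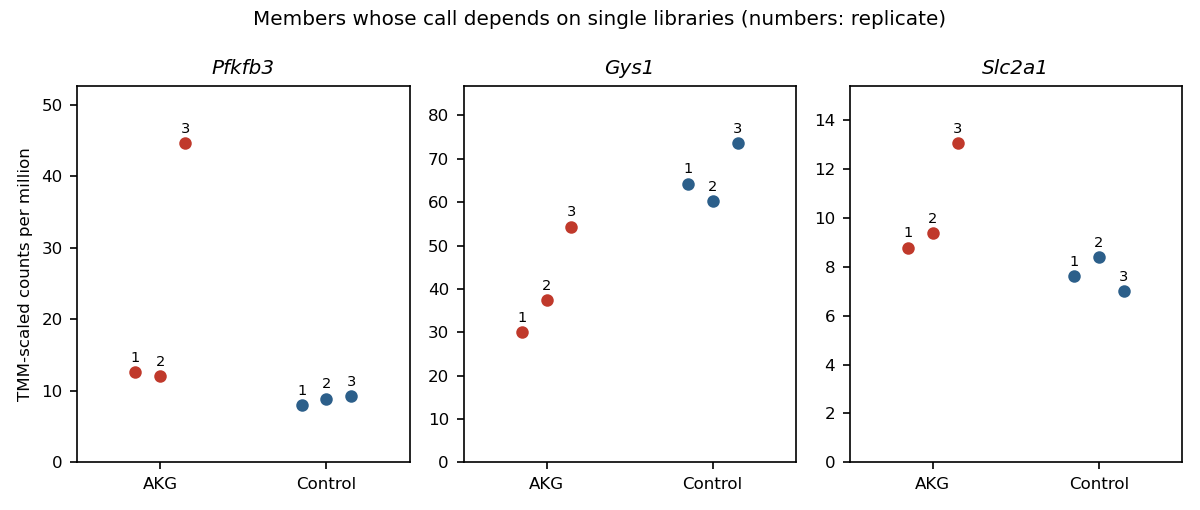
TMM-scaled CPM (y axis, from 0) of Pfkfb3, Gys1 and Slc2a1 in each AKG and Control library, with the replicate number above each point. AKG 3 stands at 44.6 CPM of Pfkfb3 against 12.6 and 12.1 CPM in the other AKG libraries, and it is also the highest AKG library for Gys1 and Slc2a1.

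Aldolase cleaves fructose 1,6-bisphosphate, and Tpi1 interconverts its products. Aldoa, the muscle aldolase, stood at 1169, 1369.9 and 1232 CPM in AKG and at 1843, 1795 and 1987 CPM in Control libraries. It fell by 0.58 on the log2 scale (SE 0.0936, edgeR adjusted p = 0.000192) but was not called with total counts (-0.13, adjusted p = 0.207). These values are those of ENSMUSG00000030695, the Aldoa row with more counts. The other row listed as Aldoa (ENSMUSG00000114515) was left out of them, and its level and direction are not given here. Aldoc, the aldolase known from brain, had 33, 43 and 41 counts in AKG 1, 2 and 3 and 3, 3 and 1 counts in Control 1, 2 and 3. The 117 counts over the AKG libraries against 7 over the Control libraries gave a ratio of 14.3 after division by the TMM-scaled library totals, with an exact 95% binomial interval of 6.72 to 36.3 that covers counting error only. Because every Control library was at or under 3 counts, the fitted log2 fold change of 3.78 depends on the prior count, and the call in edgeR's test rests on a gene that passed the filter through the AKG group alone. Tpi1 averaged 352 ± 23.3 CPM in AKG and 393 ± 17.3 CPM in Control libraries and was not called (-0.16, edgeR adjusted p = 0.129), and with total counts it was higher (0.29, adjusted p = 0.0161).

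Among the lower glycolytic enzymes, both phosphoglycerate mutase genes fell by more than 2-fold in TMM-scaled levels. Pgam2 stood at 209, 259 and 234 CPM in AKG and 532, 510.3 and 616 CPM in Control libraries (log2 fold change -1.24, SE 0.101, edgeR adjusted p = 4.84e-07). The widespread form Pgam1 stood at 39.5, 41.9 and 42.8 CPM in AKG and 92.7, 91.2 and 87.5 CPM in Control libraries (-1.13, SE 0.0724, edgeR adjusted p = 6.56e-08). Neither gene's groups overlapped. With Hk2, Slc2a4 and Pfkfb2 they were the 5 genes called lower at least 2-fold with TMM, a size reached by 6.12% of tested genes. With total counts all 5 were still called lower, but only Hk2 and Slc2a4 kept a 2-fold size. The log2 fold changes there were -1.14 for Hk2, -1.02 for Slc2a4, -0.80 for Pgam2, -0.69 for Pgam1 and -0.67 for Pfkfb2. Aldoc was the 1 gene called higher at least 2-fold, as 4.7% of tested genes were. That call says little, because Aldoc passed the low-count filter only through the AKG libraries.

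Eno3, the muscle enolase, fell and Eno1 did not. Eno3 stood at 662, 745 and 647 CPM in AKG and at 1114, 1139 and 1296 CPM in Control libraries, a log2 fold change of -0.79 (SE 0.0943, edgeR adjusted p = 1.45e-05). Eno1 stood at 178, 196 and 212 CPM in AKG and at 198, 209 and 203 CPM in Control libraries, with overlap between the groups (-0.06, SE 0.0817, edgeR adjusted p = 0.557). With total counts Eno1 was higher (0.38, adjusted p = 0.00319).

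Pyruvate kinase (Pkm), which makes the pyruvate, stood at 526, 553 and 573 CPM in AKG and 851, 930.1 and 1011 CPM in Control libraries. It fell by 0.76 on the log2 scale (SE 0.0893, edgeR adjusted p = 1.28e-05). The table has 1 row for Pkm and does not separate its adult M1 from its fetal M2 splice form. Gapdh, often used to normalize other genes, stood at 2522, 2947 and 2497 CPM in AKG and 3628, 3624 and 4259.6 CPM in Control libraries. It was lower by TMM (-0.53, SE 0.108, edgeR adjusted p = 0.00105) and was not called with total counts (-0.09, adjusted p = 0.431) or with the atrial transcript level as a covariate (-0.37, adjusted p = 0.0538). Phosphoglycerate kinase (Pgk1), which makes ATP, averaged 218 ± 16.4 CPM in AKG and 300.3 ± 17.3 CPM in Control libraries (-0.46, edgeR adjusted p = 0.00047; -0.01 and 0.912 with total counts). Bpgm, which makes the 2,3-bisphosphoglycerate of red cells, averaged 16.8 ± 2.07 and 17.98 ± 0.781 CPM and was not called (edgeR adjusted p = 0.504), beside summed red cell markers of 1484 to 2138 CPM in AKG and 1416 to 1983 CPM in Control libraries. With total counts Bpgm was higher (0.34, adjusted p = 0.0173). Mouse has many processed copies of Gapdh, Aldoa, Pgk1, Pgam1, Eno1 and Ldha, so the assignment of their reads is less certain than that of the other genes.

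Lactate dehydrogenase is built from the subunits of Ldha, which prevails in glycolytic tissue, and Ldhb, which prevails in the heart. Ldha stood at 442, 424 and 408 CPM in AKG and 515, 564 and 557 CPM in Control libraries (log2 fold change -0.36, SE 0.0803, edgeR adjusted p = 0.00205). Ldhb stood at 567, 658 and 602 CPM in AKG and 861, 852 and 967 CPM in Control libraries (-0.55, SE 0.0907, edgeR adjusted p = 0.000211). With total counts neither was called, at 0.08 for Ldha and -0.11 for Ldhb (edgeR adjusted p = 0.457 and 0.307).

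Of the 6 glycogen genes, 5 were lower and only Pygb was higher, against 25.2% and 25% of tested genes. Pygb, the brain and fetal glycogen phosphorylase, stood at 388, 388 and 439 CPM in AKG and at 255, 291 and 284 CPM in Control libraries. All AKG libraries lay above all Control libraries, a log2 fold change of 0.55 (SE 0.0863, edgeR adjusted p = 0.000144). Pygm, the muscle phosphorylase, stood at 338, 373 and 395 CPM in AKG and at 523, 550.3 and 618 CPM in Control libraries (-0.61, SE 0.0921, edgeR adjusted p = 0.000102), and with total counts at -0.17 (adjusted p = 0.157). Phka1, the muscle regulatory subunit of phosphorylase kinase, averaged 24.8 ± 0.831 and 33.1 ± 0.630 CPM (-0.42, edgeR adjusted p = 0.001).

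On the synthetic side, Ugp2, which makes UDP-glucose, averaged 105 ± 5.15 CPM in AKG and 146 ± 3.38 CPM in Control libraries (log2 fold change -0.48, edgeR adjusted p = 9.53e-05). The branching enzyme gene Gbe1 averaged 18.8 ± 2.86 and 24.5 ± 0.734 CPM (-0.38, edgeR adjusted p = 0.0126), and without AKG replicate 1 it was not called (-0.28, adjusted p = 0.0566). With total counts Phka1, Ugp2 and Gbe1 stood at 0.02, -0.04 and 0.06 (edgeR adjusted p = 0.844, 0.747 and 0.684). The muscle glycogen synthase gene Gys1 stood at 30.02, 37.5 and 54.3 CPM in AKG and at 64.2, 60.2 and 73.5 CPM in Control libraries. Its fall (-0.70, SE 0.227, edgeR adjusted p = 0.0467) was not stable: it was larger without AKG replicate 3 (-0.96, adjusted p = 1.36e-05), and not called without AKG replicate 2 (-0.64, adjusted p = 0.149) or without Control replicate 1, 2 or 3 (edgeR adjusted p = 0.0949, 0.0653 and 0.113). With total counts Gys1 was not called either (-0.24, edgeR adjusted p = 0.402), and it was called lower in 12 of the 21 settings.

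**Figure D3:**
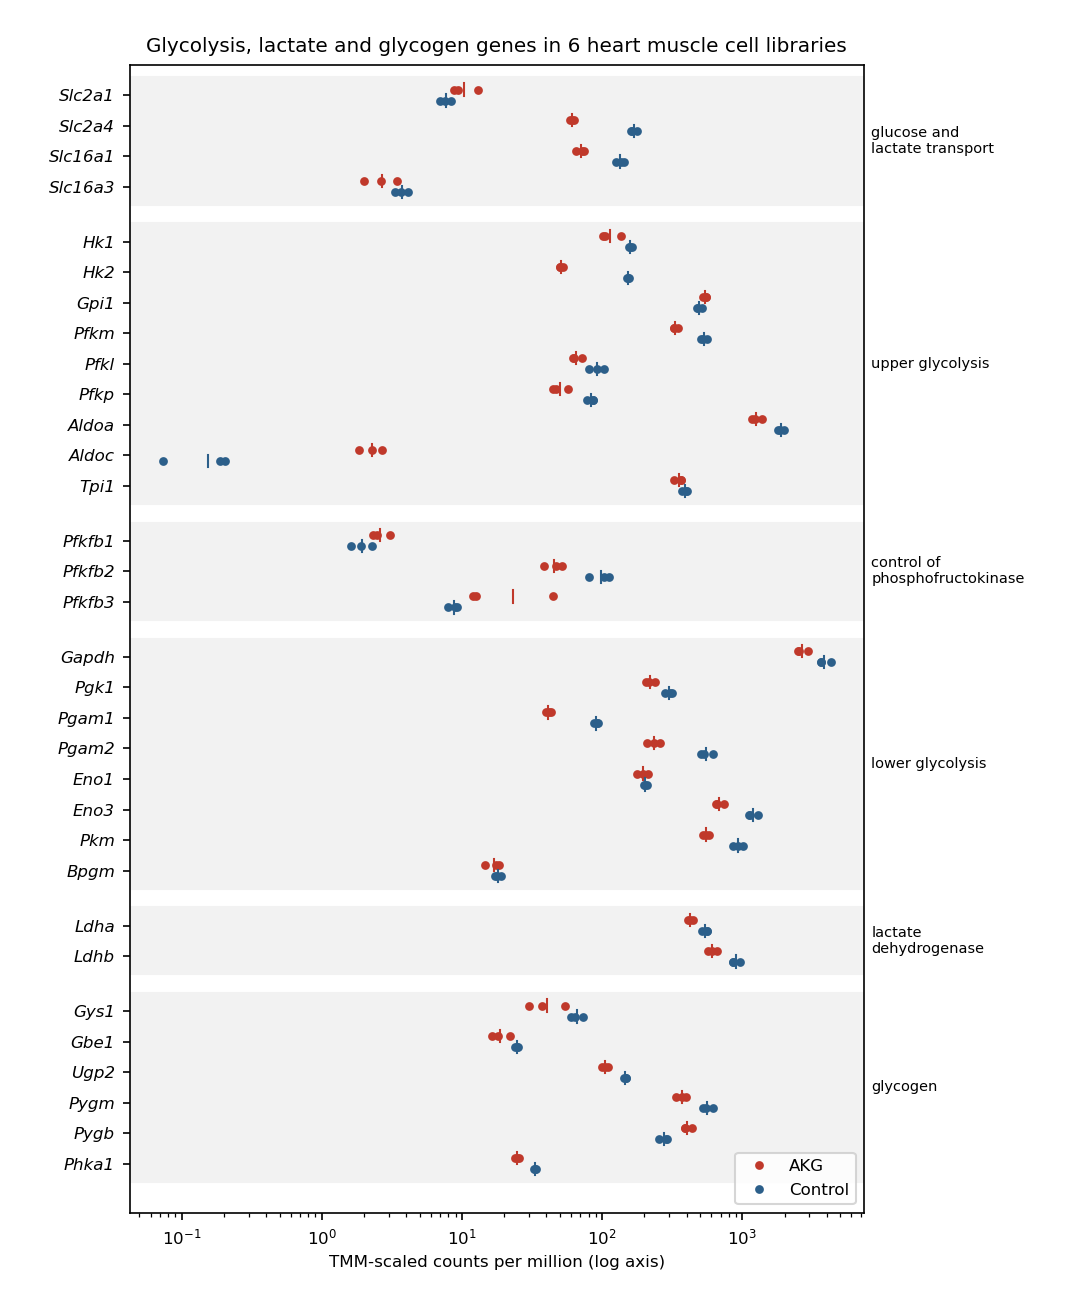
TMM-scaled CPM (x axis, log scale) of the 32 genes in each library, with AKG points above Control points in each row and a vertical tick at each group's mean. The groups are clearly apart for Hk2, Slc2a4, Pgam1 and Aldoc, and overlap for Eno1, Bpgm and Slc16a3. Aldoc passed the low-count filter only through the AKG libraries.

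Within the AKG group, AKG 3 was the highest library for 19 of the 32 genes, AKG 2 for 10 and AKG 1 for 3, against 35.3%, 30.8% and 33.9% of tested genes. Within the Control group, Control 3 was the highest for 19 genes, against 36.1% of tested genes. In sum the 32 genes took up 1.05%, 1.13% and 1.17% of the counts of AKG 1, 2 and 3 and 1.099%, 1.22% and 1.25% of those of Control 1, 2 and 3, so these shares overlapped between the groups. Their summed CPM, 9076 to 10079 in AKG and 13212 to 14900 in Control libraries, did not overlap.

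The balance of isoforms was compared within each library, so that it does not depend on how libraries are scaled. The part of the lower cardiomyocyte marker levels in this balance was not tested. For each pair the ratio of FPKM (a read level per transcript length and library total) was taken, and the log2 ratios were compared by an exact two-sided permutation test, whose smallest possible p with 3 libraries in each group is 0.1. In 7 of 10 pairs the ratios of the groups did not overlap, and in these 7 the first-named gene gained in AKG libraries. Aldoc to Aldoa is among these 7 but adds no support, because Aldoc passed the low-count filter only through the AKG libraries. For single genes, 59.2% of those tested had groups that did not overlap, and no such share was worked out for ratios of gene pairs. These 7 pairs had p = 0.1 in the exact permutation test, or 0.143 adjusted over the 10 pairs, so none could pass the threshold.

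Hexokinase shifted toward Hk1. The ratio of Hk1 to Hk2 was 2.70, 3.02 and 3.79 in AKG 1, 2 and 3 and 1.56, 1.48 and 1.46 in Control 1, 2 and 3. Hk1 made up 75.7 ± 3.12% of the summed FPKM of both genes in AKG and 60.02 ± 0.852% in Control libraries (SD, n = 3 each). The ratio was 2.09-fold higher after AKG, and the shift came with a larger fall of Hk2 and not with a rise of Hk1.

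GLUT4 remained the main glucose transporter transcript of the pair. Slc2a1 made up 12.7, 11.3 and 16.0% of the summed FPKM of Slc2a1 and Slc2a4 in AKG libraries and 4.51, 4.20 and 3.56% in Control libraries. The groups did not overlap, and the ratio was 3.58-fold higher after AKG (log2 difference 1.84, and 1.68 to 1.97 when each library was left out in turn).

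Aldolase and enolase also shifted, from very different starting points. The aldolase shift says little, because Aldoc passed the low-count filter only through the AKG libraries, with at most 3 counts per Control library. Aldoc made up 0.115, 0.166 and 0.139% of the aldolase pair in AKG and 0.00696, 0.00916 and 0.00326% in Control libraries, so Aldoa was nearly the whole of it in both groups. Eno1 made up 19.3, 18.9 and 23.5% of Eno1 and Eno3 in AKG and 13.3, 14.5 and 11.8% in Control libraries. The enolase ratio was 1.70-fold higher after AKG.

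In AKG libraries the glycogen phosphorylases came close to an even mix. Pygb made up 45.2, 42.7 and 45.0% of Pygb and Pygm in AKG and 25.3, 27.2 and 24.4% in Control libraries, a 2.31-fold higher ratio after AKG. Here, in TMM-scaled levels, 1 gene rose while the other fell. For the lactate transporters, Slc16a3 made up 6.66 ± 0.515% in AKG and 4.41 ± 0.302% in Control libraries, with 1.99 to 4.10 CPM of Slc16a3 behind it.

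Phosphofructokinase stayed mostly muscle-type. The ratio of Pfkl to Pfkm was 0.160, 0.155 and 0.206 in AKG and 0.122, 0.148 and 0.125 in Control libraries, and this small gap depended on the length correction. As a ratio of counts the log2 difference was 0.19 in place of 0.39, with p = 0.3 in the exact permutation test. For Pfkp to Pfkm, Ldha to Ldhb and Pgam1 to Pgam2 the groups overlapped, with log2 differences of -0.12, 0.20 and 0.11 (exact permutation p = 0.4, 0.2 and 0.5). Ldha made up 35.7 ± 2.22% of the lactate dehydrogenase pair in AKG and 32.6 ± 1.64% in Control libraries.

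**Figure D4:**
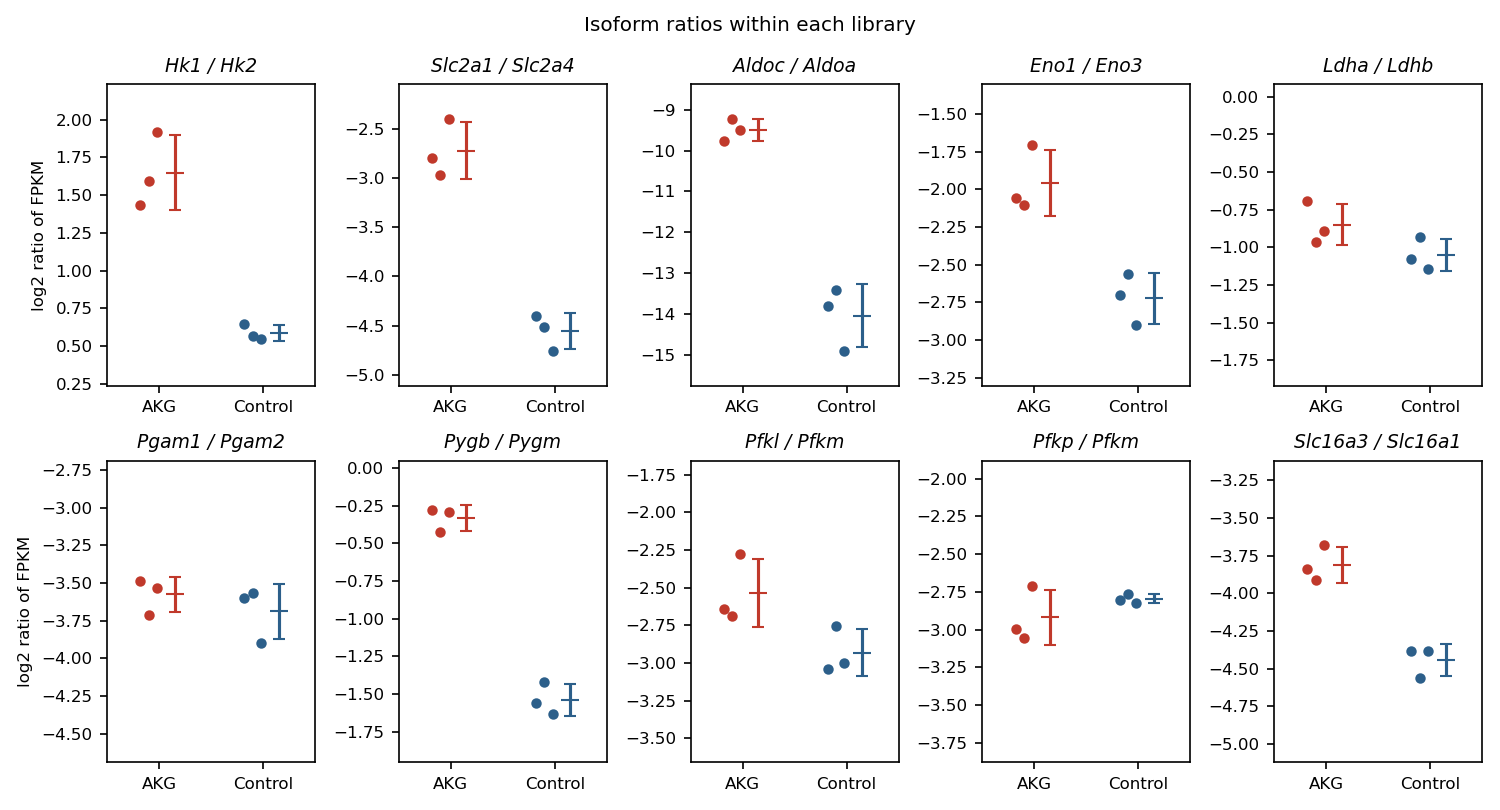
Log2 ratio of FPKM (y axis) of the named isoforms in each library, AKG on the left and Control on the right of each panel, with the mean and SD beside the points; each panel has its own y range. The groups do not overlap for Hk1/Hk2, Slc2a1/Slc2a4, Aldoc/Aldoa, Eno1/Eno3, Pygb/Pygm, Pfkl/Pfkm and Slc16a3/Slc16a1, and they overlap for the other 3.

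The skeletal muscle and heart share several of these isoforms, and the libraries held little that marks skeletal muscle alone. Of 11 skeletal muscle markers, only Ckm and Acta1, which the heart also expresses, stood above 4 CPM in either group's mean. Myh4 was at 0 counts in all 6 libraries, and Myh1 and Myh2 were at or under 0.0207 CPM in both means.

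Other genes of the pathway moved in both directions. Of 27 further glycolysis, lactate and pyruvate genes 20 had enough counts to be tested, and 9 fell and 4 rose, against 25.2% lower and 25% higher of all tested genes. Emb, 1 of the 4, passed the filter only through the AKG libraries. The mitochondrial pyruvate carrier genes fell, Mpc2 to 73.4 ± 4.81 CPM in AKG against 219 ± 13.4 CPM in Control libraries, and Mpc1 to 119.95 ± 16.9 CPM against 291 ± 21.05 CPM (edgeR adjusted p = 1.21e-08 and 4.90e-07). The muscle fructose bisphosphatase gene Fbp2 stood at 10.5 ± 0.581 CPM in AKG and 22.8 ± 2.92 CPM in Control libraries, and the D-lactate dehydrogenase gene Ldhd at 2.74 ± 0.491 and 9.41 ± 1.06 CPM, and both fell (edgeR adjusted p = 5.17e-06 and 5.19e-06).

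Of 26 further glycogen genes 24 were tested, and 7 rose and 5 fell, with a median log2 fold change of 0.05. These shares are near those of all tested genes, 25% higher and 25.2% lower. Pygl, the liver phosphorylase, which neutrophils also use, rose to 24.6 ± 2.56 CPM in AKG against 5.23 ± 0.696 CPM in Control libraries (edgeR adjusted p = 4.13e-08). Summed neutrophil markers stood at 8.09 to 15.1 CPM in AKG and 2.17 to 2.72 CPM in Control libraries, with Ly6g at 0. Of 10 such markers 5 had enough counts to be tested and were higher, but 4 of these 5, S100a9, Ngp, Ltf and Mmp9, passed the filter only through the AKG libraries. Their part in the rise of Pygl was not tested. The glycogen primer gene Gyg stood at 146 ± 6.67 and 80.3 ± 4.07 CPM, and the glycogen-binding receptor gene Stbd1 at 30.9 ± 6.63 and 7.61 ± 1.015 CPM, and both rose (edgeR adjusted p = 7.87e-07 and 1.50e-06). The phosphatase targeting subunit gene Ppp1r3g, which passed the filter only through the AKG libraries, stood at 1.83 ± 0.376 CPM in AKG and 0.0698 ± 0.0739 CPM in Control libraries, a level under that of 3 counts.

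Of 25 genes that regulate glucose use, 15 rose and 4 fell, against 25% higher and 25.2% lower of all tested genes. With total counts as the scaling, 56.7% of all tested genes were higher. Irs2, an adaptor of the insulin receptor, stood at 35.9 ± 4.94 CPM in AKG and 8.81 ± 0.423 CPM in Control libraries (log2 fold change 2.03, edgeR adjusted p = 3.12e-08). Pdk1, a kinase that inhibits pyruvate dehydrogenase, rose by 1.08 and Txnip, an inhibitor of glucose uptake, by 0.93 on the log2 scale (edgeR adjusted p = 2.12e-07 and 1.32e-06). Mlxipl, the glucose-sensing factor ChREBP, fell to 20.3 ± 4.26 CPM in AKG against 67.8 ± 6.91 CPM in Control libraries (-1.74, edgeR adjusted p = 4.80e-06).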

How the data were processed

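The authors deposited 1 table that lists for every gene, in each library, estimated counts and FPKM, and for the comparison a log2 fold change with its p-value and false discovery rate. The submitters' processing notes name the tools RSEM 1.2.19, HISAT2 2.1.0 and DESeq2 1.20.0; what each was used for, the genome build and the annotation are not given in the sources used here. The deposited counts were whole numbers and were used as deposited; FPKM, scaled by the authors to transcript length and library total, was used only for isoform ratios and as an alternative. The authors' fold changes and p-values are not printed. The 30 rows without a symbol (3.95e-05% of counts) were left out.

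Counts were fitted in R 4.3.3 with edgeR 4.0.16 (filterByExpr with a minimum count of 10 and a minimum total of 15, TMM, robust quasi-likelihood test), with Benjamini-Hochberg adjustment over 13117 genes and a threshold of 0.05. The fit was also run on simulated counts with 200 changed genes, as many raised as lowered. That run does not test the choice of scaling. The SE was worked back from the F statistic, as |log2 fold change| over its square root. CPM are counts relative to the TMM-scaled library total. The 32 genes, the 10 pairs and the lists were chosen with earlier results of these data known. All 32 genes were named, with values per library for the genes of the pairs and for those called with at least a 2-fold change; of the other lists up to 4 genes with the smallest p were named. Alternatives were other scalings and filters, DESeq2 1.42.0, limma 3.58.1 on counts (voom) and on log2 FPKM with pseudocounts of 1 and 0.1, a replicate block, an atrial covariate, and leaving out libraries.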

Additional observations from a re-analysis of the deposited data

How the results depend on the processing

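Of the 32 genes, 22 were lower and 3 higher. The counts stayed within 1.5 times under other scalings that centre on the bulk of genes, other filters, other tools on counts, the replicate block (22 lower and 2 higher) and the removal of single libraries (21 to 23 lower, 2 to 3 higher). With total counts as the scaling 10 were lower and 8 higher, and with limma on log2(FPKM + 1) or log2(FPKM + 0.1) 10 and 9. Over all tested genes, calls were 3309 lower and 3281 higher, 1196 and 7431 with total counts, 1068 and 6732 with log2(FPKM + 1), and 1067 and 6725 with log2(FPKM + 0.1), and 2158 higher with the atrial covariate. Signs turned relative to TMM for these genes with total counts, log2(FPKM + 1) and log2(FPKM + 0.1), in this order: Tpi1 at 0.29, 0.28 and 0.28, Eno1 at 0.38, 0.43 and 0.43, Ldha at 0.0803, 0.0858 and 0.0860, Bpgm at 0.34, 0.45 and 0.49, Gbe1 at 0.0650, 0.0452 and 0.0494, Phka1 at 0.0245, 0.0173 and 0.0206, and, with FPKM alone, Pfkl at 0.14 and 0.15 and Slc16a3 at 0.0756 and 0.121. With single libraries left out, the signs of 2 uncalled genes turned as well: Eno1 ranged from -0.12 to 0.0101 (without AKG replicate 1) and Bpgm from -0.16 to 0.00703 (without AKG replicate 3). These settings keep the shift of all genes, of 0.45 with total counts.

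The isoform ratios kept their direction in every setting but 1: the log2 difference of Pgam1 to Pgam2 was -0.0227 with AKG replicate 2 alone. The labels do not say whether replicate numbers pair the libraries. The deviations of same-numbered libraries correlated at 0.16, -0.03 and 0.05 for replicates 1, 2 and 3. Those of libraries with different numbers correlated at -0.12 to 0.07. With so few libraries these values cannot decide whether the libraries were paired. Depth limits Aldoc, Slc16a3 and Pfkfb1, each with fewer than 70 counts in every library.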
